A study of Mus musculus with 36 samples.

Results

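The genes described here are 34 genes of the cell division cycle and of DNA replication, chosen by name and followed through 36 RNA-seq libraries of mouse embryonic forelimb at stage E12.5. All 34 were found by gene symbol in the deposited expression table and joined by Ensembl identifier to a count table of 50833 genes. They comprise 10 replication genes (Mcm2, Mcm3, Mcm4, Mcm5, Mcm6, Mcm7, Rrm1, Rrm2, Ccne1 and Ccne2), 2 licensing loaders (Cdc6 and Cdt1) and 14 mitosis genes (Cdk1, Ccnb1, Ccnb2, Plk1, Aurka, Aurkb, Bub1, Bub1b, Cdc20, Cenpe, Cenpf, Kif11, Kif20a and Birc5). The rest are 3 general proliferation genes (Mki67, Top2a and Ccna2), 3 G1 drivers (E2f1, Ccnd1 and Ccnd2) and 2 inhibitors of cyclin-dependent kinases, or CDKs (Cdkn1a and Cdkn1b). The study asked how deleting binding sites of the chromatin-loop protein CTCF (CBS) at the Hoxd cluster with CRISPR/Cas9 alters expression in the limb. Distal forelimb, which holds the forming hand plate, was compared with proximal forelimb in each of 6 genotypes, namely 5 deletions and the wild type (WT), and each deletion was compared with WT within each tissue. Each deletion is named for the sites it removes, from CBS1 alone in Del(CBS1) through Del(CBS1-2), Del(CBS1-3) and Del(CBS1-4) to the run of CBS1 to CBS5 in Del(CBS1-5). Each of the 12 groups held 3 libraries from forelimb pairs of individual embryos of the strain B6CBAF1. The labels do not say whether a deletion was on 1 chromosome or on both, and they name no driver that would restrict a deletion to certain cells.

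Cells copy their DNA in S phase and divide in M phase, and most genes of each step are transcribed shortly before they are used. In late G1, D-type cyclins activate CDKs, and E2F factors then switch on genes for S phase. Cdc6 and Cdt1 load the ring of Mcm2 to Mcm7, the replicative helicase, onto DNA, and Rrm1 and Rrm2 form ribonucleotide reductase, which makes the deoxyribonucleotides. Cyclin B and Cdk1 then drive entry into mitosis, and the spindle checkpoint proteins Bub1 and Bub1b (BubR1) hold back Cdc20 until all chromosomes are attached. Cdkn1a (p21) and Cdkn1b (p27) inhibit cyclin-CDK complexes. In the limb bud, mesenchymal progenitors divide as the bud grows out, while muscle and cartilage cells slow or leave the cycle as they differentiate.

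Levels are counts scaled to library size (CPM), and levels of different genes are compared only as FPKM, which also divides by transcript length. Differences are log2 fold changes with their standard error (SE), tested with edgeR's quasi-likelihood test, and a gene was called where its p, adjusted by the Benjamini-Hochberg method over all genes tested, was under 0.05. Total counts ran from 11062069 to 17727891 per library, and the 34 genes took between 0.607% and 1.04% of them. Marker genes fitted the dissection: 8 distal markers summed to 3209 to 3585 CPM in distal WT and to 565 to 909 CPM in proximal WT libraries, and 8 proximal markers to 196 to 216 CPM in distal WT and 724 to 938 CPM in proximal WT libraries. All 34 genes passed the filter on low counts in every comparison.

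Ranked by the median FPKM of the 18 distal libraries, the most abundant of the 34 was Top2a, the topoisomerase that untangles sister chromatids, at 146 FPKM. Ccnd2, a D-type cyclin, followed at 132 FPKM, and Cdk1 at 120 FPKM. At the other end stood Ccne2, an E-type cyclin of S phase entry, at 8.65 FPKM and Cdkn1a at 4.11 FPKM. In proximal libraries Cdkn1a had a median of 22.5 FPKM, above Ccne2 at 7.20 FPKM.

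Distal forelimb had more transcript of nearly all of these genes than proximal forelimb, in WT and in every deletion. In WT, 31 of the 34 were higher in distal tissue, against 13.6% of all genes tested, and 1, Cdkn1a, was lower, against 17.1% of all genes. The 2 that were not called in WT were Ccne1 and Ccnd1. Higher in distal tissue were 30 of 34 in Del(CBS1) (16.5% of all genes), 33 in Del(CBS1-2) (24.8%), 30 in Del(CBS1-3) (15.9%), 33 in Del(CBS1-4) (17.8%) and 29 in Del(CBS1-5) (19.4%). Cdkn1a was the 1 gene of the 34 called lower in each of the 5 deletions, where 19.7%, 25.9%, 18.3%, 20.8% and 21% of all genes were lower, in the same order. The median log2 fold change of the 34 was 0.44 in WT and lay between 0.42 and 0.64 in the deletions, while the median over all genes tested was 0.005 in WT. Called higher in all 6 genotypes were 28 of the 34, namely all 14 mitosis genes, 8 of 10 replication genes, both licensing loaders, all 3 general proliferation genes and Ccnd2. For 25 of the 34 the 18 distal and 18 proximal libraries did not overlap at all. Overlap of the 36 libraries was not counted over all genes tested, here or for the groups of genes below. These libraries are bulk tissue, so fewer cells of a type and less RNA per cell cannot be told apart, and the share of cycling cells was not measured.

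**Figure D1:**
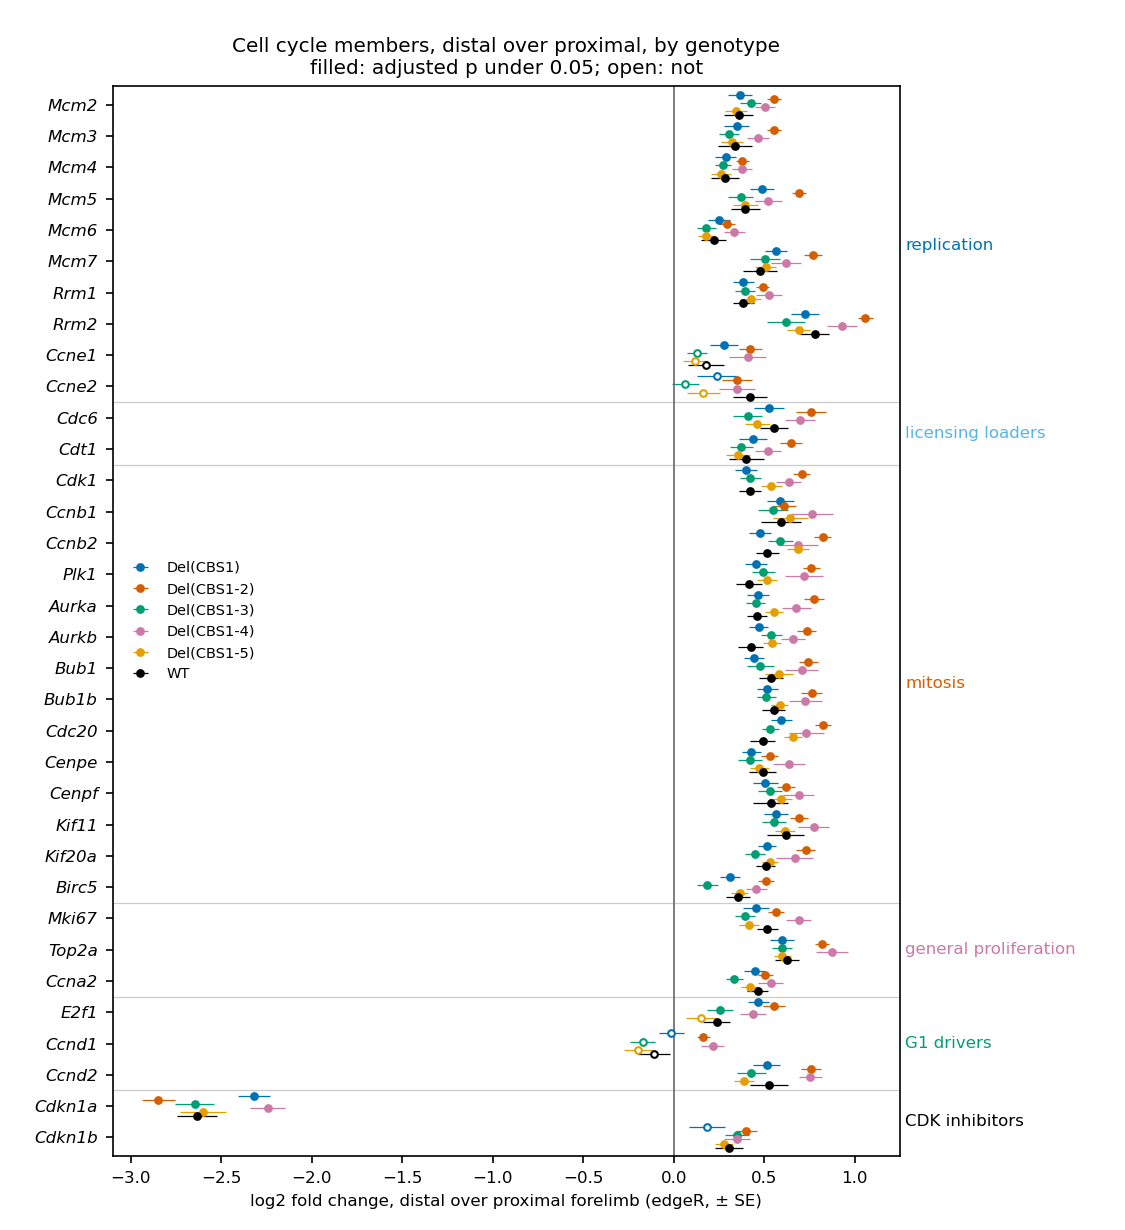
Log2 fold change of distal over proximal forelimb for each of the 34 genes (rows, grouped by role) in 6 genotypes (colours), with the standard error as a bar; filled points have an adjusted p under 0.05 and open points do not. All 14 mitosis genes lie to the right of 0 in every genotype, Cdkn1a lies near -2.5, and Ccnd1 is scattered around 0.

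Markers of muscle, cartilage and other cell types also differed between the tissues. All 14 skeletal muscle markers were lower in distal than in proximal WT tissue, and their summed level was 42.9 to 43.4 CPM in distal WT libraries and 2184 to 2598 CPM in proximal WT libraries. Of 11 cartilage markers tested, 8 were lower and 1 higher in distal WT tissue, with a summed level of 1989 to 2295 CPM in distal and 4058 to 4347 CPM in proximal WT libraries. None of the muscle or cartilage markers was at 0 in these WT groups. Lower in distal WT tissue were also 7 of 8 endothelial and 6 of 7 nerve and Schwann cell markers tested, with none of either higher. Of 8 markers each, 1 macrophage marker was lower and 0 higher, 1 erythroid marker was higher and 0 lower, and 3 epithelial markers were higher and 2 lower. What part these cells have in the tissue differences of the cycle genes was not tested.

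Among the G1 drivers, Ccnd2 had 1097, 1170 and 876 CPM in distal WT libraries, against 736, 765 and 680 CPM in proximal WT libraries. The lowest distal WT library was above the highest proximal one, and the difference was called in all 6 genotypes, with a log2 fold change of 0.39 to 0.76. Its close relative Ccnd1, also a D-type cyclin, behaved otherwise, with 472, 459 and 474 CPM in distal WT and 540, 429 and 544 CPM in proximal WT libraries. The Ccnd1 groups overlapped in WT, and the log2 fold change there was -0.11 ± 0.089 (SE; adjusted p = 0.407, edgeR). Without proximal WT replicate 2 it was -0.21 and called lower (adjusted p = 0.0203, edgeR). Ccnd1 was higher in distal tissue in Del(CBS1-2) (0.16 ± 0.037) and in Del(CBS1-4) (0.21 ± 0.066) and was not called in the other 4 genotypes. The Del(CBS1-4) call was lost in 3 of the 6 fits that left out a library, and the Del(CBS1-2) call was lost with all 36 libraries in 1 fit (adjusted p = 0.0767, edgeR). In Del(CBS1-3) it was -0.17, and with the same-numbered distal and proximal libraries paired as a replicate block this value was called lower (adjusted p = 0.0361, edgeR). The most negative value was -0.20 in Del(CBS1-5) (adjusted p = 0.0721, edgeR), which was called lower by DESeq2 (adjusted p = 0.0420), with no count filter (adjusted p = 0.00561, edgeR) and in 2 of the 6 fits that left out a library. Distal Ccnd1 exceeded its same-numbered proximal library in 11 of 18 pairs.

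E2f1, the transcription factor that activates genes of S phase entry, had 66.9, 67.0 and 67.3 CPM in distal WT libraries, against 61.7, 51.6 and 57.3 CPM in proximal WT libraries. The groups did not overlap, and E2f1 was called higher in distal tissue in 5 of 6 genotypes, with values of 0.15 in Del(CBS1-5), where it was not called, to 0.56 in Del(CBS1-2). The WT call (0.24 ± 0.075, adjusted p = 0.0415, edgeR) was lost when any of 5 of the 6 libraries was left out, and the Del(CBS1-3) call when any of 4 was.

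Of the replication genes, Rrm2, the regulatory subunit of ribonucleotide reductase, differed most between the tissues in every genotype. It had 281, 288 and 314 CPM in distal WT libraries, against 176, 152 and 186 CPM in proximal WT libraries. Every distal WT library was above every proximal one, a 1.72-fold difference (log2 0.78 ± 0.081, adjusted p = 0.000179, edgeR), and in Del(CBS1-2) the difference was 2.08-fold (log2 1.06 ± 0.040). Rrm1, the catalytic subunit, had 446, 444 and 457 CPM in distal WT libraries and 344, 322 and 365 CPM in proximal WT libraries. These ranges did not overlap, and the log2 fold change of Rrm1 was 0.38 to 0.53 over the 6 genotypes.

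The 6 helicase genes Mcm2 to Mcm7 were called higher in distal tissue in all 6 genotypes. Mcm2 had 366, 337 and 405 CPM in distal WT libraries, against 285, 268 and 311 CPM in proximal WT libraries. These ranges did not overlap, and the log2 fold change was 0.36 ± 0.079 (SE; adjusted p = 0.00918, edgeR). Mcm7 had the largest WT difference of the 6 (0.48), but it shares its locus with Cops6 and Ap4m1 on the opposite strand, and whether strand was used in counting is not given in the sources used here. Mcm6 had the smallest (0.22 ± 0.068, adjusted p = 0.0383, edgeR). The WT calls of Mcm3, Mcm4 and Mcm6 were each lost in 3 or 4 of the 6 fits that left out a library. Over all 18 libraries of a tissue, Mcm2 and Mcm4 did not overlap, while the other 4 helicase genes did.

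The E-type cyclins, which activate Cdk2 at the start of S phase, were the replication genes not called in every genotype. Ccne1 had 67.4, 71.0 and 73.7 CPM in distal WT libraries and 67.3, 52.6 and 67.2 CPM in proximal WT libraries. The lowest distal library was barely above the highest proximal one, and the log2 fold change of 0.18 ± 0.10 was not called (adjusted p = 0.215, edgeR). It was called in Del(CBS1), Del(CBS1-2) and Del(CBS1-4), with values from 0.28 to 0.42, and the Del(CBS1) call was lost in 3 of the 6 fits that left out a library. Ccne2 was called in WT, Del(CBS1-2) and Del(CBS1-4), with values from 0.35 to 0.42, and ranged from 0.06 to 0.24 in the other 3 genotypes. Its Del(CBS1-4) call was likewise lost in 3 of 6 such fits. Ccne2 overlaps Ints8 on the opposite strand. Both licensing loaders were called in all 6 genotypes. Cdc6 had 71.5, 73.2 and 70.8 CPM in distal WT libraries, against 49.6, 44.3 and 52.9 CPM in proximal WT libraries, with no overlap (0.55 ± 0.077, adjusted p = 0.000845, edgeR). Cdt1 was 0.40 ± 0.097 in WT and 0.36 to 0.65 over the 6 genotypes.

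Mitosis genes were called higher in distal tissue in 84 of 84 gene and genotype tests, and in none of the 14 genes did the 18 distal and 18 proximal libraries overlap. Bub1, the checkpoint kinase, had 190, 209 and 181 CPM in distal WT libraries, against 130, 131 and 136 CPM in proximal WT libraries. Its log2 fold change of 0.54 ± 0.066 (adjusted p = 0.000432, edgeR) was close to that of its partner Bub1b at 0.55 ± 0.064. Plk1, a kinase of mitotic entry and exit, had 139, 143 and 159 CPM in distal WT libraries and 104, 108 and 118 CPM in proximal WT libraries. All 3 distal values again exceeded the proximal ones (0.42 ± 0.072, adjusted p = 0.00271, edgeR).

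The remaining mitosis genes had WT values between 0.35 for Birc5 (survivin, of the chromosomal passenger complex) and 0.62 for Kif11, the motor that separates the spindle poles. Between these lay Aurka and Aurkb, the Aurora kinases of the spindle poles and of the passenger complex (0.46 and 0.42), Cdk1 (0.42), the B-type cyclins Ccnb1 and Ccnb2 (0.59 and 0.52), Cdc20 (0.49), the kinetochore genes Cenpe and Cenpf (0.49 and 0.54) and Kif20a, a kinesin of cytokinesis (0.51). Birc5 in Del(CBS1-3), at 0.18, was the lowest of the 84 values and was lost in 4 of 6 fits that left out a library. Cenpf in WT was lost in 2 of the 7 other settings, and the other mitosis calls were lost in none of the settings run. Kif20a and Cdc20 overlap Cdc23 and Elovl1 on the opposite strand.

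Mki67, the gene of the Ki-67 antigen carried by cycling cells, had 838, 928 and 854 CPM in distal WT libraries, against 615, 597 and 616 CPM in proximal WT libraries. The ranges did not overlap, and the log2 fold change was 0.52 ± 0.056 (adjusted p = 0.000207, edgeR). Top2a had 1098, 1247 and 1188 CPM in distal WT libraries and 748, 732 and 808 CPM in proximal WT libraries, a 1.54-fold difference. Ccna2, the cyclin of S and G2 phase, had 275, 311 and 289 CPM in distal WT and 211, 213 and 210 CPM in proximal WT libraries (0.46 ± 0.058). All 3 were called in all 6 genotypes without overlap over the 36 libraries.

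Cdkn1a went the other way and further than any of the 33 other genes. It had 10.9, 9.36 and 8.22 CPM in distal WT libraries, against 59.4, 56 and 60.9 CPM in proximal WT libraries. Over all 36 libraries the highest distal value was 12.7 CPM and the lowest proximal value 50.5 CPM, so no library of one tissue reached the other. The WT distal level was 0.161 times the proximal level (log2 -2.63 ± 0.11, adjusted p = 8.83e-07, edgeR), and the log2 value lay between -2.85 and -2.24 over the 6 genotypes. Cdkn1b, the other inhibitor, had 84.6, 91.5 and 81.0 CPM in distal WT and 65.3, 76.2 and 66.2 CPM in proximal WT libraries. Thus Cdkn1b was higher in distal tissue (0.31 ± 0.079, adjusted p = 0.0188, edgeR), as in 4 deletions. The WT call was lost in 3 of the 6 fits that left out a library. In Del(CBS1) it was 0.18 and not called, but it was called with the numbered libraries paired as a replicate block (adjusted p = 0.0306, edgeR). Of 14 other p53 target genes tested, 2 were higher in distal WT tissue, Pmaip1 (1.96) and Perp (0.51), and 0 were lower by edgeR, against 13.6% and 17.1% of all genes, with 3 of 14 at an unadjusted p under 0.05.

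**Figure D2:**
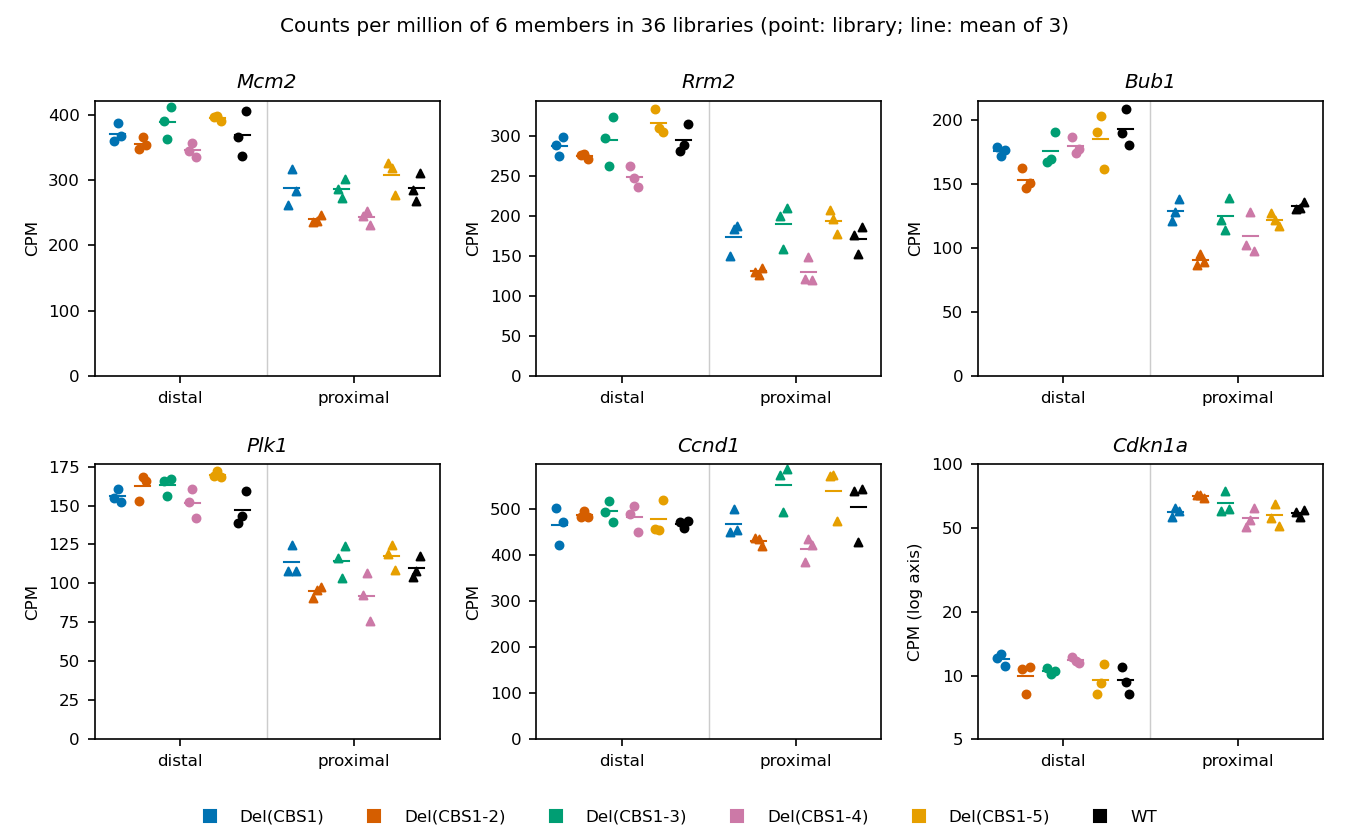
Level in CPM of 6 of the genes in each of the 36 libraries, distal on the left and proximal on the right of each panel, with a short line at the mean of the 3 libraries of a group; the axis of Cdkn1a is logarithmic and the others start at 0. Mcm2, Rrm2, Bub1 and Plk1 are higher in distal libraries, Ccnd1 overlaps between the tissues, and Cdkn1a lies between 8.14 and 12.7 CPM in distal and between 50.5 and 74.3 CPM in proximal libraries.

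The start regions of these genes were then searched for motifs, and 27 of the 34 genes had 29 RefSeq windows on build GRCm38.p6 (mm10). The 250 bases before each start were searched on both strands for E2F-type letters (TTTCCCGC, TTTGGCGC, TTTCGCGC or TTTGCCGC), for letters of the cell cycle homology region, or CHR (TTTGAA or TTCGAA), for CCAAT, and for the p53 decamer. Matches of a motif may overlap each other. CCAAT occurred in 22 of the 29 windows (75.9%), against 33.8% of all 32851 windows of the same length, and in 11 of 12 windows of mitosis genes. CHR-type letters occurred in 9 windows (31.0%, against 17.1% of all), among them 5 of mitosis genes and those of Mki67 and Top2a. E2F-type letters occurred in 5 windows (17.2%, against 1.86% of all), those of Mcm5, Mcm6, Mcm7, Cdc6 and Cdk1. The p53 decamer occurred in 3 windows (10.3%, against 7.13% of all), those of Birc5 and Bub1b with 1 match each and an upstream start of Cdkn1a with 2. These are matches of letters and were not tested as sites. The windows below are those of the 2 replication and 2 mitosis genes with the smallest p in WT among windows that hold a searched motif, and of Cdkn1a, read 5′ to 3′ in the direction of the gene and ending at the base before the start. Capitals mark CCAAT and CHR-type letters on either strand and, for Cdkn1a, the p53 decamers; the decamer of Bub1b shares a base with its CHR-type letters and is left in lower case. The windows of E2f1, Ccne1 and Cdt1 and that of a downstream start of Cdkn1a held none of the motifs.
Rrm1, chr7:102441445-102441694, plus strand: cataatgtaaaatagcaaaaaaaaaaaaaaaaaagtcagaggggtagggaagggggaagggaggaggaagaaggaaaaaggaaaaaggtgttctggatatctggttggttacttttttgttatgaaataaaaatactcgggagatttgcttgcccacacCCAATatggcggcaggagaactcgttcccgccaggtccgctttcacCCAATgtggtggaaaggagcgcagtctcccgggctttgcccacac
Rrm2, chr12:24708004-24708253, plus strand: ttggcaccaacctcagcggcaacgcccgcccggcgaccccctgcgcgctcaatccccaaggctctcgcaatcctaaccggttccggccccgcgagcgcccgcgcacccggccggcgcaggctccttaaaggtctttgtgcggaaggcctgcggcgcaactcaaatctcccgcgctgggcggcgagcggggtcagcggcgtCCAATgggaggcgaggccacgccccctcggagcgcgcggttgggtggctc
Bub1, chr2:127831860-127832109, minus strand: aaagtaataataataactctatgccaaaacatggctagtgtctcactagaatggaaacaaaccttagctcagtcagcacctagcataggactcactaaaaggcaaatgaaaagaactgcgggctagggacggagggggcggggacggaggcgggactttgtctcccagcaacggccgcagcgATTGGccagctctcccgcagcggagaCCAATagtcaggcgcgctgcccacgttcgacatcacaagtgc
Bub1b, chr2:118597961-118598210, plus strand: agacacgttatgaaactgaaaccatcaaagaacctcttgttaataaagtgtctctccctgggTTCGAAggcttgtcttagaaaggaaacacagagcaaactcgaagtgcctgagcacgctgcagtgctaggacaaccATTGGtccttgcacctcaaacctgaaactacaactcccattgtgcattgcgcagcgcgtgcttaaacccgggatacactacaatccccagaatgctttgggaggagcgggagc
Cdkn1a, chr17:29090729-29090978, plus strand: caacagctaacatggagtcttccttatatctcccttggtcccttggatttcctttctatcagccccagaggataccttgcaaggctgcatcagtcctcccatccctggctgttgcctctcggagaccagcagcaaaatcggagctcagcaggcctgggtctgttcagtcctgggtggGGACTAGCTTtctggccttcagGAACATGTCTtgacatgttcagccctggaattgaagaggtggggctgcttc
Both windows of the reductase genes hold CCAAT, Rrm1 at 91 and 45 bases and Rrm2 at 50 bases before the start, counted to the first letter of the match. Bub1 has its matches at 68 and 42 bases, and the decamers of Cdkn1a lie 73 and 51 bases before its upstream start. In the deposited table the genes themselves span chr7:102441695-102469771 (Rrm1, ENSMUSG00000030978), chr12:24708241-24714146 (Rrm2, ENSMUSG00000020649), chr2:127801122-127831865 (Bub1, ENSMUSG00000027379), chr2:118598211-118641591 (Bub1b, ENSMUSG00000040084) and chr17:29090979-29100727 (Cdkn1a, ENSMUSG00000023067).

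Other genes of the same steps followed the 34. Of 45 further replication genes, 32 were higher in distal WT tissue and 0 lower, with a median log2 fold change of 0.31. The 4 with the smallest p were Mcm10, a replication initiation factor (0.66 ± 0.077), Dut, the dUTPase (0.78 ± 0.093), Tk1, thymidine kinase (0.56 ± 0.069), and Uhrf1, which recruits the maintenance DNA methyltransferase (0.54 ± 0.070). Of 52 further mitosis genes, 50 were higher and 0 lower, with a median of 0.51, led by the kinase Nek2 (0.75 ± 0.065), the checkpoint gene Mad2l1 (0.65 ± 0.057), the kinesin Kif2c (0.60 ± 0.056) and the spindle factor Tpx2 (0.51 ± 0.048). In each of the 5 deletions 30 to 41 of the 45 and 51 of the 52 were higher in distal tissue. Of the 20 further G1 regulators tested in WT, 7 were higher and 4 lower. Of all genes tested in WT, 13.6% were higher and 17.1% lower in distal tissue. Myc averaged 10.9 CPM in distal and 41.5 CPM in proximal WT libraries (-1.93 ± 0.092), while Mycn averaged 128 CPM in distal and 44.5 CPM in proximal WT libraries (1.51 ± 0.096). E2f7, a repressor of the E2F family, was higher (0.62 ± 0.061), and the CDK inhibitor Cdkn1c (p57) was lower in distal tissue (-0.94 ± 0.120).

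Replication and mitosis genes were then set against each other. The median log2 difference between the tissues was larger for the 14 mitosis than for the 10 replication genes in every genotype, by 0.13 in WT (0.50 against 0.37), 0.12 in Del(CBS1), 0.21 in Del(CBS1-2), 0.17 in Del(CBS1-3), 0.20 in Del(CBS1-4) and 0.23 in Del(CBS1-5). The same was seen in the mean log2 CPM of each group per library. The mitosis mean was 7.40 to 7.67 in distal and 6.62 to 7.06 in proximal libraries, without overlap. The replication mean was 7.75 to 8.08 in distal and 7.20 to 7.72 in proximal libraries, also without overlap. Mitosis minus replication averaged -0.43 over the 18 distal and -0.58 over the 18 proximal libraries, a difference of 0.15 against a pooled SD within groups of 0.065. It was higher in the distal library of all 18 numbered pairs, by 0.03 to 0.33. The libraries themselves overlapped in this measure, which ran from -0.52 to -0.32 in distal and from -0.68 to -0.44 in proximal tissue. With the median over the genes of a group in place of the mean, the tissue difference was 0.22. With log2(FPKM + 0.1) it was 0.15. Wider lists, with Cdc6 and Cdt1 added to replication and Mki67, Top2a and Ccna2 to mitosis, gave 0.13. No test was made of these group means, since the genes were chosen with results of these data known.

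**Figure D3:**
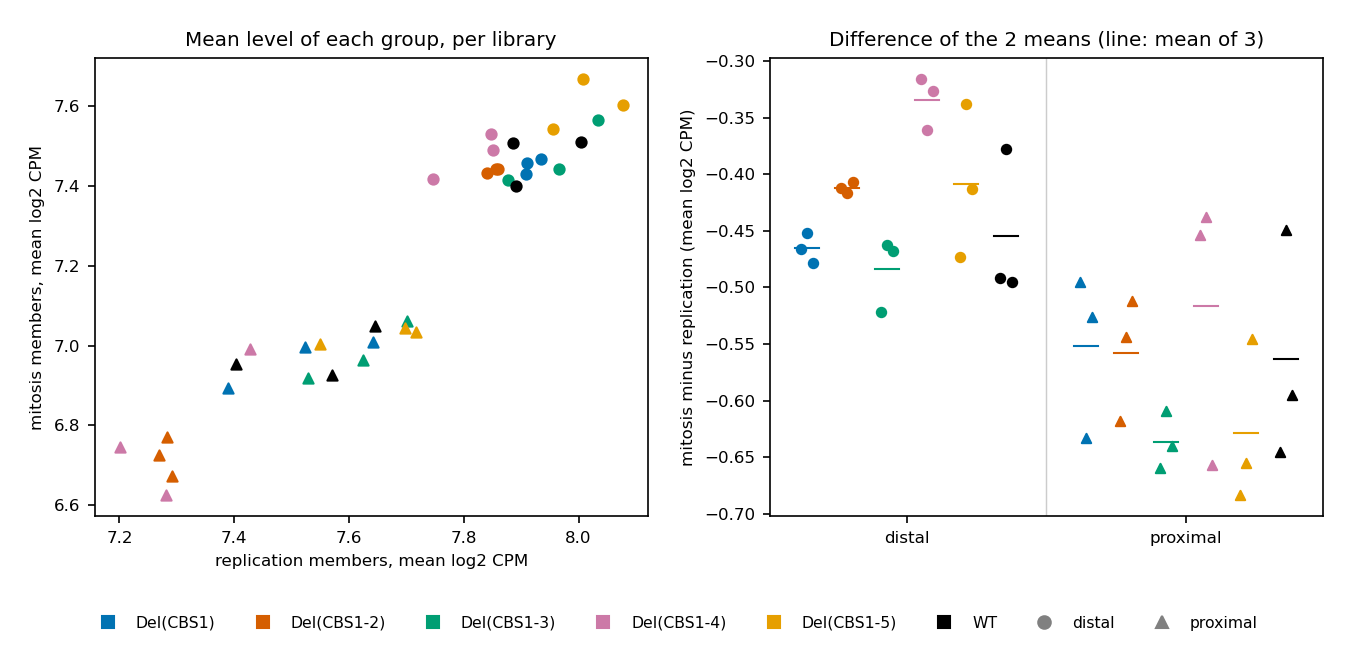
Left, mean log2 CPM of the 14 mitosis genes against that of the 10 replication genes in each of the 36 libraries (circles distal, triangles proximal, colours genotypes); right, mitosis minus replication per library, with a line at the mean of the 3 libraries of a group. Distal libraries lie above and to the right of proximal ones, and the 3 distal Del(CBS1-4) libraries, at -0.36 to -0.32, include the highest value on the right.

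Against WT, none of the 34 genes passed the test in 4 of the 5 deletions. Within a tissue, all 5 deletions share the same 3 WT libraries. In distal tissue none of the 34 genes was called in Del(CBS1) (0.0325% of all genes called by edgeR), Del(CBS1-3) (0.00651%), Del(CBS1-4) (0.0846%) or Del(CBS1-5) (0.0651%). At an unadjusted p under 0.05 there were 3, 5, 7 and 11 of the 34. Here and below, each share of all genes is for edgeR calls at an adjusted p under 0.05, without a block or covariate. None is given for unadjusted p or for other settings. DESeq2 called 0, 0, 1 and 1, namely Rrm2 in Del(CBS1-4) (-0.25) and Ccnb2 in Del(CBS1-5) (0.28), and limma on log2(FPKM + 0.1) called 0 in all 4. In proximal tissue none was called in Del(CBS1) (0.0443% of all genes), Del(CBS1-3) (0.0696%), Del(CBS1-4) (0%) or Del(CBS1-5) (0.0696%). At an unadjusted p under 0.05 there were 0, 2, 23 and 0, and DESeq2 called 1, Rrm2 in Del(CBS1-4), and limma 0.

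Del(CBS1-2) was the exception. In distal tissue 5 of the 34 were lower than in WT, against 5.99% of all genes, and 0 were higher, against 4.47% of all genes, by edgeR; 12 of the 34 had an unadjusted p under 0.05, and DESeq2 called 7 lower and 0 higher and limma on log2(FPKM + 0.1) 3 lower and 0 higher. Bub1 had 162, 147 and 151 CPM in distal Del(CBS1-2) libraries, against 190, 209 and 181 CPM in distal WT libraries. No Del(CBS1-2) library reached the lowest WT one (-0.36 ± 0.073, adjusted p = 0.0074, edgeR). Cenpf, a large kinetochore protein of G2 and M phase at chr1:189640606-189688086, had 233, 218 and 225 CPM in distal Del(CBS1-2) and 248, 312 and 280 CPM in distal WT libraries (-0.34 ± 0.077, adjusted p = 0.0126, edgeR). Ccne2 had 32.9, 32.3 and 28.5 CPM in distal Del(CBS1-2) and 36.8, 45.4 and 39.2 CPM in distal WT libraries (-0.40 ± 0.096, adjusted p = 0.0163, edgeR). Neither pair of groups overlapped. The other 2 were Cdc6 (-0.23 ± 0.066, adjusted p = 0.0326, edgeR) and Mki67 (-0.17 ± 0.049, adjusted p = 0.0307, edgeR).

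The distal Del(CBS1-2) calls were not equally firm. Bub1 was called in each of the 6 fits that left out a library, Ccne2 and Cenpf were lost in 2, Mki67 in 4 and Cdc6 in 5 of them. Without distal WT replicate 2, 1 of the 34 was called. Markers of other cell types also differed in these libraries. The 14 muscle markers summed to 85.0 to 163 CPM in distal Del(CBS1-2), against 42.9 to 43.4 CPM in distal WT libraries, with 2 of 14 called higher and 0 lower, and the cartilage markers to 2963 to 3095 CPM, against 1989 to 2295 CPM, with 2 of 11 called higher and 0 lower. Of the 12 cartilage markers, Snorc was at 0 in distal Del(CBS1-2). Epithelial markers summed to 566 to 674 CPM in distal Del(CBS1-2) and 460 to 476 CPM in distal WT libraries, and nerve and Schwann cell markers to 172 to 179 CPM in distal Del(CBS1-2) and 130 to 142 CPM in distal WT libraries, with 2 of 8 and 2 of 7 called higher. Endothelial markers summed to 371 to 381 CPM in distal Del(CBS1-2) and 335 to 366 CPM in distal WT libraries, with none of 8 called by edgeR. Macrophage markers summed to 59.2 to 62.7 CPM in distal Del(CBS1-2) and 37.7 to 56.5 CPM in distal WT libraries, with 2 of 8 called higher. Erythroid markers summed to 2126 to 2281 CPM in distal Del(CBS1-2) and 2473 to 3552 CPM in distal WT libraries, with 1 of 8 called lower. None of these sums overlapped between the groups. The 8 proximal forelimb markers summed to 222 to 254 CPM in distal Del(CBS1-2) and 196 to 216 CPM in distal WT libraries, without overlap. The 8 distal forelimb markers overlapped, at 3076 to 3326 CPM and 3209 to 3585 CPM. Apart from the fit with the muscle score, the part of the cell type and tissue markers in the result was not tested. With each library's muscle score as a covariate, 0 of the 34 were called in distal and 0 in proximal Del(CBS1-2). The log2 fold changes in that fit were -0.31 for Bub1, -0.32 for Cenpf, -0.34 for Ccne2, -0.12 for Cdc6 and -0.11 for Mki67 in distal tissue, and -0.48 for Bub1 and -0.33 for Cenpf in proximal tissue. Their adjusted p ran from 0.0701 to 0.402 by edgeR.

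The wider lists are read against the 5.99% of all genes lower and the 4.47% higher in distal Del(CBS1-2). Of 52 further mitosis genes, 10 were lower than in distal WT and 0 higher, led by the condensin gene Smc4 (-0.30 ± 0.059), Pttg1, or securin (-1.34 ± 0.270), the kinetochore gene Knl1 (-0.35 ± 0.075) and the kinesin Kif20b (-0.22 ± 0.055). Of 45 further replication genes, 4 were lower, among them Orc4 of the origin recognition complex (-0.40 ± 0.083), and 2 were higher, among them Tk1 (0.27 ± 0.054). Of 21 further G1 regulators, Ccnd3 (0.29 ± 0.047) and Myc (0.51 ± 0.144) were higher and E2f5 (-0.41 ± 0.094) and Cdk6 (-0.32 ± 0.087) lower. Of 14 p53 targets, Trp53inp1 (-0.53), Pmaip1 (-0.96) and Ccng1 (-0.29) were lower and 0 higher.

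In proximal tissue of Del(CBS1-2), 2 of the 34 were lower, against 0.468% of all genes, and 0 were higher, against 0.253% of all genes. Bub1 had 86.9, 95.6 and 89.0 CPM in proximal Del(CBS1-2) libraries, against 130, 131 and 136 CPM in proximal WT libraries. The groups were well apart (-0.55 ± 0.086, adjusted p = 0.00429, edgeR), and Bub1 was called in each of the 6 fits that left out a library. Cenpf had 137, 142 and 156 CPM in proximal Del(CBS1-2) and 173, 210 and 195 CPM in proximal WT libraries (-0.41 ± 0.089, adjusted p = 0.0381, edgeR), and was lost in 5 of these 6 fits. Of the 34 genes, 33 had a negative value here and 32 an unadjusted p under 0.05, with a median of -0.23, against -0.003 over all genes tested. The share of all genes at that unadjusted p is not given here. DESeq2 called 10 lower, adding Mcm2, Mcm5, Rrm2, Cdc6, Aurka, Cdc20, Top2a and E2f1 to Bub1 and Cenpf, while limma on log2(FPKM + 0.1) called 1. Leaving out proximal WT replicate 2 gave 8 calls. Cdkn1a was the 1 gene with a positive value, with 71.4, 71.2 and 68.9 CPM in proximal Del(CBS1-2) and 59.4, 56 and 60.9 CPM in proximal WT libraries. These ranges did not overlap, but its 0.26 was not called (adjusted p = 0.129, edgeR). Muscle markers summed to 2992 to 3275 CPM in proximal Del(CBS1-2) and 2184 to 2598 CPM in proximal WT libraries, and cartilage markers to 5461 to 5569 CPM and 4058 to 4347 CPM, with none of either list called. Endothelial markers summed to 492 to 527 CPM in proximal Del(CBS1-2) and 431 to 448 CPM in proximal WT libraries. In the same order, epithelial markers summed to 558 to 598 CPM and 370 to 501 CPM. Nerve and Schwann cell markers summed to 319 to 345 CPM and 299 to 314 CPM. No gene of these lists was called. The 8 distal forelimb markers summed to 506 to 553 CPM in proximal Del(CBS1-2) and 565 to 909 CPM in proximal WT libraries, without overlap. The 8 proximal forelimb markers overlapped, at 855 to 893 CPM and 724 to 938 CPM. What part the tissue markers have in the values of the cycle genes was not tested. Of the 52 further mitosis genes, Kif15 (-0.36 ± 0.072) and Kif18b (-0.31 ± 0.072), both kinesins, were lower in proximal Del(CBS1-2) and 0 were higher. Of the 45 further replication genes 0 were called by edgeR, with 25 at an unadjusted p under 0.05.

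Proximal Del(CBS1-4) showed a similar tilt without a call. All 34 genes had a negative value, with a median of -0.20 against -0.001 over all genes tested. Rrm2, with the smallest p, had 122, 148 and 120 CPM in proximal Del(CBS1-4) and 176, 152 and 186 CPM in proximal WT libraries. The highest Del(CBS1-4) library was just under the lowest WT one (-0.40 ± 0.108, adjusted p = 0.176, edgeR). Without proximal WT replicate 2, 5 of the 34 were called in this comparison. Cartilage markers summed to 4610 to 6556 CPM in proximal Del(CBS1-4) and 4058 to 4347 CPM in proximal WT libraries, and the part of this difference in the values of the cycle genes was not tested.

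**Figure D4:**
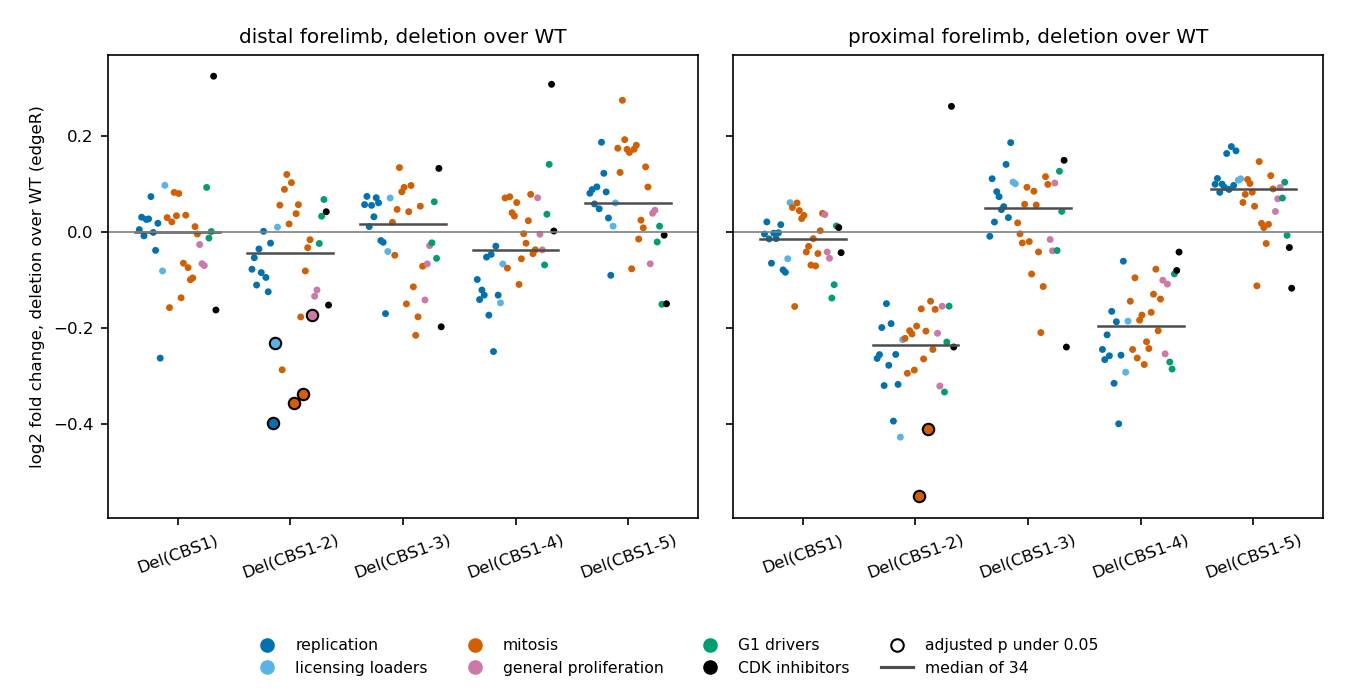
Log2 fold change of each deletion over WT for the 34 genes (points, coloured by role) in distal (left) and proximal (right) forelimb, with a line at the median of the 34; large points with a black rim have an adjusted p under 0.05. The 5 called genes of distal and the 2 of proximal Del(CBS1-2) lie below 0, and in proximal Del(CBS1-4) all 34 points lie below 0 with none called.

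In distal Del(CBS1-4) no gene was called, and the difference between replication and mitosis genes was not tested. All 10 replication genes had negative values there, with a median of -0.13, while the 14 mitosis genes were split 7 and 7 about a median of 0.01. Mitosis minus replication, in mean log2 CPM, was -0.36 to -0.32 in the 3 distal Del(CBS1-4) libraries and -0.50 to -0.38 in the 3 distal WT libraries, so these groups did not overlap. With medians over the genes they did overlap, at -0.9073 to -0.8345 in distal Del(CBS1-4) and -1.0375 to -0.8326 in distal WT libraries. With the wider lists of both groups, distal WT replicate 2 (0.2274) was above distal Del(CBS1-4) replicate 2 (0.2189). With log2(FPKM + 0.1) the groups did not overlap. Del(CBS1-5) had positive medians in distal tissue for both groups (0.08 for replication and 0.15 for mitosis), and none of these genes was called.

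Whether a deletion acted differently in the tissues was tested as an interaction in all 36 libraries, first without pairing the tissues of an embryo. No gene of the 34 was called for Del(CBS1) (0% of all genes), Del(CBS1-2) (0.0491%), Del(CBS1-3) (0.00614%), Del(CBS1-4) (0.0184%) or Del(CBS1-5) (0%), with 1, 18, 2, 8 and 0 at an unadjusted p under 0.05 by edgeR. DESeq2 called 2 for Del(CBS1-2), Aurka (0.31) and Aurkb (0.30), and 0 for the other deletions, and limma called 0. For Del(CBS1-2), 32 of the 34 interaction values were positive, with a median of 0.22 against 0.02 over all genes tested. With the same-numbered distal and proximal libraries paired as a replicate block, 4 of the 34 were called for Del(CBS1-2) and none for the other deletions. The 0.0491% of all genes above is of the fit without the block, and no such share is given for this fit. Plk1 had 153, 168 and 166 CPM in distal Del(CBS1-2) and 139, 143 and 159 CPM in distal WT libraries, but 90.8, 95.9 and 97.8 CPM in proximal Del(CBS1-2) and 104, 108 and 118 CPM in proximal WT libraries. The distal ranges overlapped, while in proximal tissue every Del(CBS1-2) library was below every WT library (0.35 ± 0.072, adjusted p = 0.0342 with the block and 0.214 without, edgeR). The others were Cdc20 (0.35 ± 0.071), Aurkb (0.32 ± 0.064) and Mcm5 (0.31 ± 0.063), each with an adjusted p of 0.0342 with the block by edgeR.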

How the data were processed

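RNA from distal and proximal forelimb of single embryos was sequenced as stranded, poly(A)-selected libraries, per the labels' protocols. The raw counts per gene and the FPKM values (fragments scaled to transcript length and library size) are as deposited by the authors; per the submitters' processing notes the tools included cutadapt 1.16, STAR 2.7.0, Cufflinks 2.2.1 and bedtools 2.27.1 with build mm10. The deposited count table held 50833 genes and that of FPKM values held 55052. Whether strand was used in counting is not given in the sources used here.

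The counts were tested with edgeR 4.0.16 (limma 3.58.1, R 4.3.3): TMM scaling, filterByExpr and the quasi-likelihood test with Benjamini-Hochberg adjustment over all genes tested. Each distal and proximal comparison used the 6 libraries of its genotype, each deletion was tested against WT in the 18 libraries of its tissue, and tissue dependence was the interaction in all 36. The alternatives were DESeq2-type size factors, no count filter, DESeq2 1.42.0, limma on log2(FPKM + 0.1) or log2(FPKM + 1) for genes of at least 1 FPKM in 3 libraries, a replicate block, a muscle score as covariate (deletions), 1 fit of all libraries (tissues), and leaving out each library. The tests were checked on simulated data. Group means of log2 CPM used a prior count of 0.5.

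Distal and proximal libraries of one number and genotype deviated together (r = 0.16 to 0.486, all 18 pairs over 0.1). They were taken as pairs in the replicate block and where numbered pairs are counted. The tests between the tissues and of tissue dependence did not use the pairs unless a replicate block is named. The labels describe pairs of forelimbs of individual embryos, so p-values measure the spread between embryos.

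All 34 genes are named; of other lists, counts and up to 4 called genes with the smallest p are given. Promoters are those of up to 2 replication genes, 2 mitosis genes, 1 G1 driver and 1 inhibitor with the smallest p in WT and a searched motif. The 34 genes and the lists were chosen with earlier results of these data known.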

Additional observations from a re-analysis of the deposited data

Results flagged for a closer look

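Of the 34 genes, 4 differed between distal and proximal tissue in their response to Del(CBS1-2) when the same-numbered libraries of the tissues were paired as a replicate block. The differences between the tissues in the log2 fold change of Del(CBS1-2) over WT were 0.31 for Mcm5, 0.35 for Plk1, 0.32 for Aurkb and 0.35 for Cdc20, each with an adjusted p of 0.0342 by edgeR. Without the block the adjusted p of Mcm5 was 0.28, that of Plk1 0.214, that of Aurkb 0.109 and that of Cdc20 0.167 by edgeR. No share of all genes called with the block is given here. Aurkb had 130, 142 and 143 CPM in distal Del(CBS1-2) and 123, 126 and 132 CPM in distal WT libraries, and 80.7, 81.8 and 84.9 CPM in proximal Del(CBS1-2) and 93, 87.6 and 103 CPM in proximal WT libraries. Cdc20 had 183, 189 and 199 CPM in distal Del(CBS1-2) and 179, 165 and 197 CPM in distal WT libraries, and 103, 108 and 108 CPM in proximal Del(CBS1-2) and 126, 124 and 134 CPM in proximal WT libraries. Mcm5 had 391, 409 and 406 CPM in distal Del(CBS1-2) and 399, 378 and 440 CPM in distal WT libraries, and 238, 248 and 253 CPM in proximal Del(CBS1-2) and 317, 276 and 330 CPM in proximal WT libraries. For all 3 the proximal groups did not overlap, while the distal groups overlapped.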

How the results depend on the processing

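No value changed sign in a called result. Counts of called genes between the tissues stayed within 1.5 times the reported ones under each alternative, from 30 to 34 in the other settings and from 28 to 34 with 1 library left out. The deletion counts were less stable, and the cause was not tested. How many of all genes each of these settings called is not given here, so the counts below have no share to be read against. In distal Del(CBS1-2), 5 calls became 3 with log2(FPKM + 0.1), 3 with log2(FPKM + 1) and 0 with the muscle score as covariate (where Bub1 was -0.31, Cenpf -0.32 and Ccne2 -0.34), and 1 to 6 with 1 library left out. In proximal Del(CBS1-2), 2 calls became 25 with no count filter, 10 with DESeq2, 1 with either FPKM setting, 0 with the muscle score, 1 with the replicate block, and 1 to 8 with 1 library left out. Where none was called, no count filter gave 1 in distal and 1 in proximal Del(CBS1-3), 2 in distal Del(CBS1-4), 17 in proximal Del(CBS1-4) and 2 in distal Del(CBS1-5), and DESeq2 gave 1 in distal Del(CBS1-4), 1 in proximal Del(CBS1-4) and 1 in distal Del(CBS1-5). With 1 library left out there were 0 to 1 in distal Del(CBS1-4), 0 to 3 in distal Del(CBS1-5) (3 without distal WT replicate 3) and 0 to 5 in proximal Del(CBS1-4). Tissue dependence gave 5 for Del(CBS1-2) and 2 for Del(CBS1-4) with no count filter, 2 for Del(CBS1-2) with DESeq2 and 4 with the replicate block. The tissue difference of mitosis minus replication was 0.221 with medians over the genes, 0.148 with log2(FPKM + 0.1) and 0.13 with the wider lists of both groups.

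Between deletions and WT the replicate numbers did not pair the libraries (r from -0.13 to 0.288, 4 of 30 over 0.1). With this replicate block Mki67 in distal (adjusted p = 0.0502, edgeR) and Cenpf in proximal Del(CBS1-2) (adjusted p = 0.0508, edgeR) were no longer called.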
